A study of Homo sapiens with 62 samples.

Results

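The genes described here are 10 members of the cytosolic heat shock system: the transcription factor HSF1, the 70 kDa chaperones HSPA1A, HSPA1B and HSPA8, their relative HSPH1, the 90 kDa chaperones HSP90AA1 and HSP90AB1, the small heat shock protein HSPB1, and the co-chaperones DNAJB1 and BAG3. They were chosen by gene name, and each name matched 1 row of every table. They are 10 of 58735 listed genes in the tables of 4 cell lines and 10 of 48162 in those of A2780. RNA sequencing counts were available for 62 libraries of 5 established human cell lines. Each of these lines carries a gained chromosome arm, and single-cell-derived clones had lost the extra copy through ReDACT, a set of genome-engineering methods whose versions the labels name NS, TR and CO. Cells grew for 24 hours after plating before RNA was taken, with no stress treatment named in the labels.

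A2058, a melanoma line with gains of 1q, 7p and 8q, had 4 WT libraries, 4 1q-loss libraries from 2 clones, 6 7p-loss libraries from 3 clones and 4 8q-loss libraries from 2 clones, all made by the CO version. HCT116, a colorectal cancer line with a gain of 8q, had 2 WT libraries and 4 8q-loss libraries from 2 CO clones. AGS, a gastric adenocarcinoma line with a gain of 1q, had 1 WT library, 2 libraries of TK+ clones, which carry a TK+ integrant and keep the gain, and 5 1q-loss libraries from 5 clones (1, 4, 6 and 7 by NS, 11 by CO). A2780, an ovarian cancer line with a gain of 1q, had 2 WT, 2 TK+ and 6 1q-loss libraries, the last from 3 NS clones (2, 5 and 6). MCF10A, a breast epithelial line with an extra 1q, had 2 WT libraries and 8 1q-loss libraries from 4 clones (1 to 3 by TR, 4 by CO), and as many again in cells that express hRASV12 (hRas below), an activated form of HRAS. The labels call the 2 libraries of an MCF10A clone biological replicates. For the other lines they do not say whether libraries of 1 clone or of WT came from separate cultures, so p-values there measure only the spread between libraries, which within a clone may be technical. Libraries of 1 clone share that clone, and a loss group stands for 2 to 5 clones.

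Total counts per library were 19595543 to 28622197 in A2058, 21373588 to 30984036 in HCT116, 15042068 to 19414614 in AGS, 19358338 to 23965475 in A2780 and 15500424 to 29312644 in MCF10A. Genes on the lost arm shifted in every loss comparison, by a median log2 change of -0.36 (MCF10A hRas 1q-loss) to -0.57 (HCT116 8q-loss). In WT cells, melanocyte markers were expressed in A2058, breast epithelial markers in MCF10A and general epithelial markers in HCT116 and AGS. The epithelial set (EPCAM, CDH1, KRT8 and KRT18) does not tell colorectal from gastric cells. Of these, CDH1 had 64 to 154 counts in HCT116 and 324 in AGS. In A2780 WT the ovarian markers PAX8, WT1, KRT7 and MUC16 had 0 to 10 counts, at or near 0. Their summed level was far higher in MCF10A WT. The 3 A2058 losses share the same WT libraries.

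As background, chaperones hold and refold other proteins, and cells make more of them when damaged protein accumulates. HSF1 is the main activator of this response. It is held inactive in unstressed cells and, once freed, forms trimers that bind promoters carrying alternating GAA and TTC units, so its activity is set mostly on the protein rather than by its mRNA. HSPA1A and HSPA1B are near-identical stress-inducible HSP70 genes, HSPA8 is the constitutive HSP70, HSPH1 is an exchange factor for HSP70, DNAJB1 is a J-domain protein that hands substrates to HSP70, BAG3 links HSP70 to autophagy, HSPB1 (HSP27) holds unfolding proteins, and HSP90AA1 and HSP90AB1 are the inducible and constitutive HSP90 that mature kinases and receptors. Gains of whole chromosome arms are known to load this folding machinery.

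The promoters of the inducible genes HSPA1A, HSPA1B and DNAJB1 and of HSPA8 are shown because these 4 genes later move together between A2058 libraries. Each stretch is the 150 bases before the gene's start, 5′ to 3′ on the gene's strand, from RefSeq (GRCh38.p14). RefSeq starts differ from the ends of the gene models in the count tables, whose positions are given with each gene below. Capitals mark GAANNTTC or TTCNNGAA, the pairs of inverted units that HSF1 can bind, each of which reads the same on both strands.
HSPA1A, chr6:31815393-31815542, plus strand: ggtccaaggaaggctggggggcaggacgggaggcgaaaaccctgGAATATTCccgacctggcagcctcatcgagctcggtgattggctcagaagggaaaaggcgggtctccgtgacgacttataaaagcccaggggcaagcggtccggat
HSPA1B, chr6:31827588-31827737, plus strand: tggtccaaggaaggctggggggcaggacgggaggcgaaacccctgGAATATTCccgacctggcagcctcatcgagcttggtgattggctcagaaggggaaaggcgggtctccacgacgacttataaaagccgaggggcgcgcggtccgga
DNAJB1, chr19:14518398-14518547, minus strand: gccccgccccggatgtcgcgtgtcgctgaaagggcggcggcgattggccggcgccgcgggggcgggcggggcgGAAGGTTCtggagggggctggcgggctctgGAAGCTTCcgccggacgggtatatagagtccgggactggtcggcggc
HSPA8, chr11:123062137-123062286, minus strand: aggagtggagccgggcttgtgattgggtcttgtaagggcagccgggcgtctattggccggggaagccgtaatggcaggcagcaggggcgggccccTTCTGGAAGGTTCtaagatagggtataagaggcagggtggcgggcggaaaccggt

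The HSPA1A and HSPA1B stretches share 141 of 150 bases in order, and each holds 1 match, which begins 106 and 105 bases before the start. In DNAJB1 the matches begin 77 and 47 bases before the start. DNAJB1 has more than 1 listed start, and the window with the most matches is shown. The matches in the shown stretch of HSPA8, 55 and 50 bases before the start, overlap in a run of 3 alternating units. Further HSPA8 matches, 230 and 225 bases before the start, lie upstream of that stretch. Over RefSeq windows from 250 bases before to 50 after a start, 9 of the 10 members had a window (all but HSF1) and 7 of the 9 held a match, while HSPH1 and BAG3 held none. Counted by window, 8 of 14 member windows held a match, and 13.5% of all 35116 windows did. Runs of 3 units stood in 3 of 14 member windows (HSPA8, HSP90AA1 and HSP90AB1) and in 0.49% of all windows. A match is a description of the letters, not a measured binding site.

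In control cells (WT and, in AGS and A2780, also TK+) HSP90 and HSPA8 were the highest members in 4 of the 5 lines. Levels here are CPM (each gene's count scaled to its library's total, with TMM factors) per kilobase of gene model, so that genes can be compared within a line, and A2780 used other gene models than the rest. HSP90AB1 was highest in A2058 (1015), AGS (383.9), MCF10A (988.5) and A2780 (1211 CPM per kb). In HCT116 HSPB1 stood at 1257 and HSP90AB1 at 1170, with overlapping ranges of 978.6 to 1535 and 1069 to 1271. HSP90AB1, HSP90AA1 and HSPA8 took the top 3 places in the other 4 lines, and in A2058 HSP90AA1 (864.1) and HSPA8 (820.4) could not be ordered because their ranges overlapped. The inducible HSP70 genes lay far below these: HSPA1A at 87.53 and HSPA1B at 39.95 in A2058, 25.91 and 19.96 in MCF10A, 4.38 and 45.66 in AGS, and 4.70 and 63.38 in HCT116. HSF1, at 17.57 (AGS) to 76.13 (HCT116), was last among the members in A2058, where its range overlapped that of HSPA1B. In HCT116 its range overlapped those of DNAJB1, BAG3 and HSPA1B, the next below it.

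Some members set a line apart. HSPH1 had 4.08 to 27.67 CPM in the HCT116 libraries and 138.6 to 731.7 CPM in those of the other lines, with no overlap. HSPB1 ran from 30.96 CPM in an A2780 WT library to 2508 CPM in an HCT116 WT library. HSPA1A had 0 to 3 counts in every A2780 library while HSPA1B had 26.67 to 46.58 CPM there. The share of HSPA1A in the summed counts of HSPA1A and HSPA1B was 63.0 to 71.0% in A2058, 51.2 to 61.1% in MCF10A, 7.07 to 12.9% in AGS, 4.28 to 8.47% in HCT116 and 0 to 0.528% in A2780. The coding sequences of both genes agree at 1919 of 1923 bases and share 93.9% of their 50-base windows, so how reads were split between them is uncertain, and A2780 also used another annotation. Their sum is therefore also given for the comparisons of a loss or control group with its control.

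**Figure D1:**
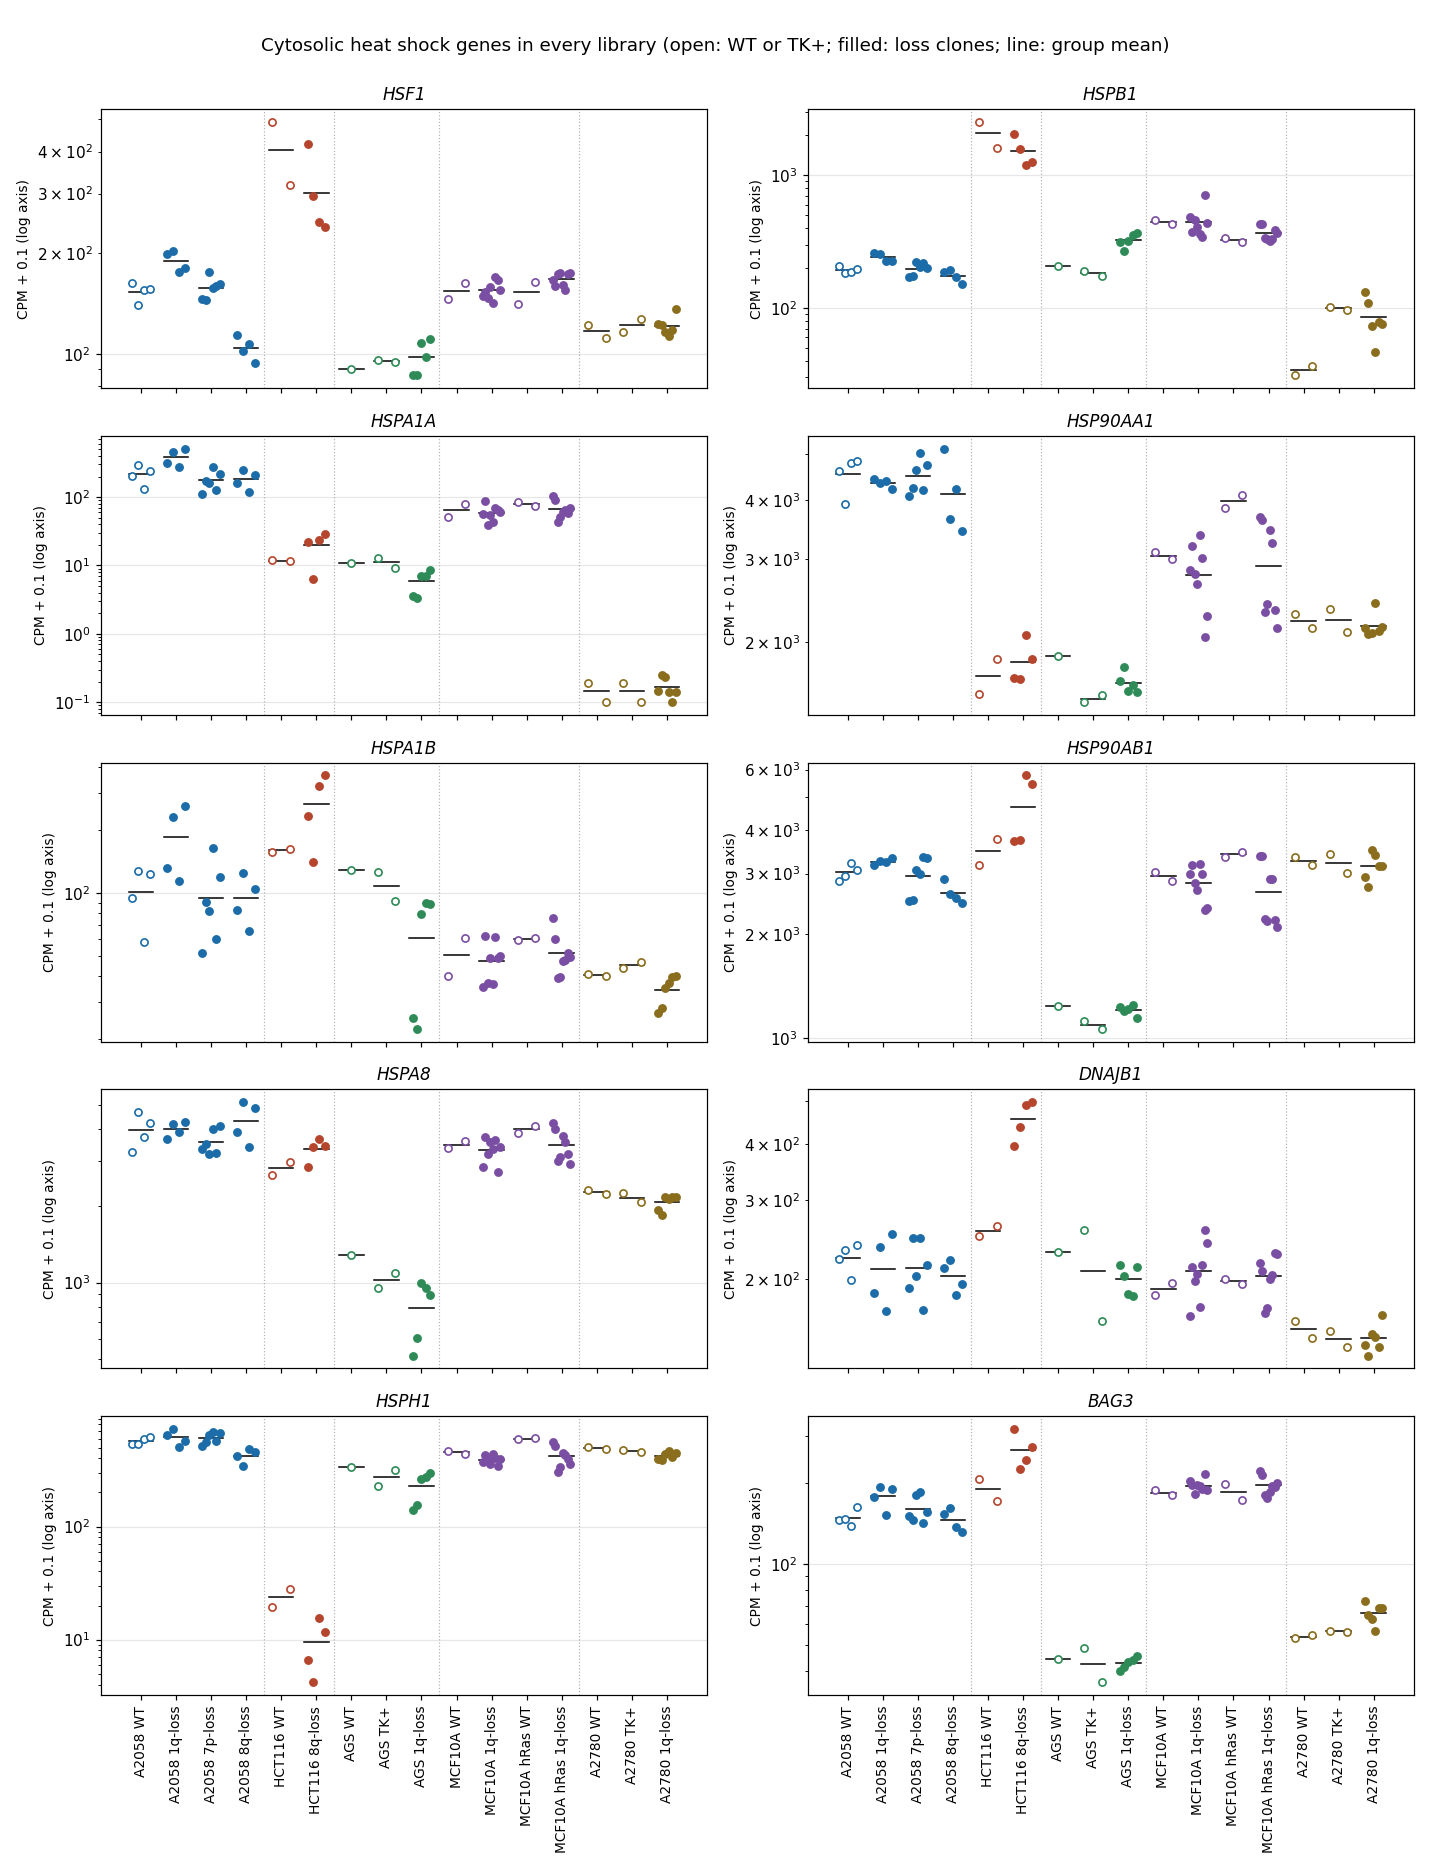
CPM plus 0.1 (log axis) of each gene in every library, by group; open points are WT or TK+ libraries, filled points are loss libraries, and the line is the group mean. HSPH1 is 4.08 to 27.67 CPM in HCT116 against 138.6 to 731.7 CPM elsewhere, and HSPA1A is near 0 in A2780.

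HSF1 (ENSG00000185122, 8q, chromosome 8, 144291591 to 144314722, GRCh38) is the member on a lost arm, and the 8q-loss clones were compared with WT for its mRNA. In A2058 WT it stood at 154.7, 155.5, 162.3 and 139.3 CPM, and in the 8q-loss libraries at 113.7 and 101.6 (clone 1) and 106.5 and 93.67 (clone 2). Every loss library was below every WT library. HSF1 fell to 67.5% of WT (-0.57 on the log2 scale, SE 0.0844). Its adjusted p was 0.00822 in edgeR's quasi-likelihood test, the source of every adjusted p below unless another tool is named. It was 1 of the 131 genes called lower among 342 tested on 8q, whose median was -0.53. In bulk RNA, fewer cells with a transcript and less of it per cell cannot be told apart, here and below. The HSF1 call was lost with only WT replicates 1 and 2 (adjusted p = 0.0659) or only WT replicates 3 and 4 (0.235), with values of -0.59 and -0.55. Of the 5 melanocyte markers SOX10, MITF, PMEL, MLANA and TYR, 2 fell in these clones (MLANA and TYR), with a summed level of 1635 to 2454 CPM beside 1537 to 2502 in WT, and their part in these results was not tested.

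In HCT116 the WT libraries were at 490.2 and 317.8 CPM for HSF1 and the 8q-loss libraries at 422.2 and 295.1 (clone 1) and 246.3 and 237.7 (clone 2). The WT libraries differed from each other by more than the group means did, and the groups overlapped. The log2 fold change was -0.50 (SE 0.305, adjusted p = 1), while the 328 tested genes of 8q had a median of -0.57 with 0 called. The HSF1 value rested on the WT libraries: it was -0.10 without WT replicate 1 and -0.80 without WT replicate 2. Per clone, HSF1 changed by -0.16 in clone 1 and -0.71 in clone 2, beside medians of the arm of -0.55 and -0.66. The A2058 8q-loss clones gave -0.51 and -0.61, beside -0.50 and -0.57. The 8q effect on HSF1 differed between the lines by -0.13 (A2058 minus HCT116, SE 0.190, adjusted p = 0.898). In the clones that kept 8q, HSF1 changes ran from -0.11 to 0.39 while the arm moved by -0.09 to 0.03. HSF1 overlaps DGAT1 on the opposite strand, and without the strand setting of the counting their shared reads cannot be told apart.

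**Figure D2:**
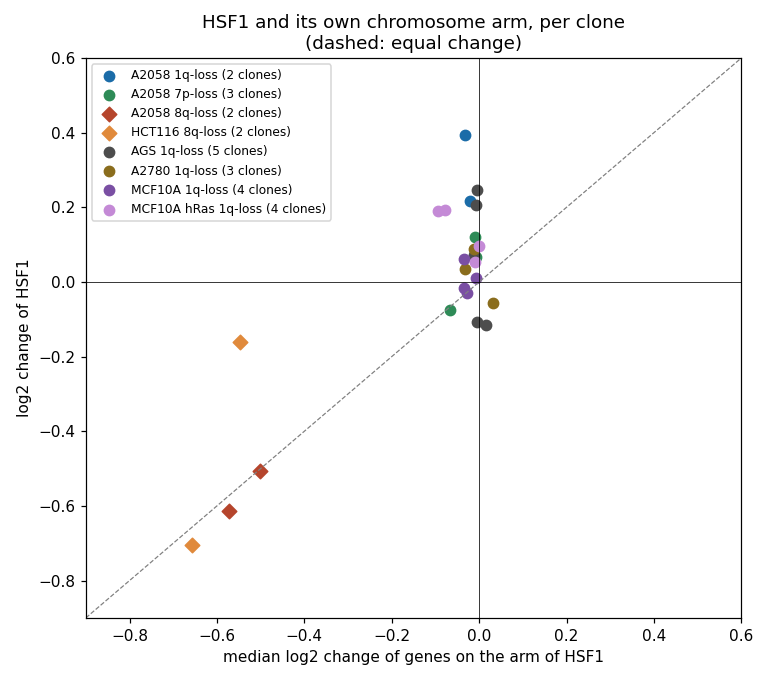
The log2 change of HSF1 (vertical) against the median log2 change of tested genes on its chromosome arm (horizontal) for every loss clone; diamonds are 8q-loss clones and the dashed line marks equal change. HSF1 lies close to the line in 3 of the 4 8q-loss clones, and HCT116 clone 1 lies above it, at -0.16 beside an arm change of -0.55.

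The question for the other members was whether chaperone mRNA differed in the clones without the extra 8q. In A2058 8q-loss 1 of the 10 members was called, HSF1 itself, where 2.03% of all 15141 tested genes were called. The median change over the members was -0.15, beside 0.01 over all genes, and 9 of 10 were below 0. HSPH1 (13q, chromosome 13, 31134974 to 31162388) stood at 592.5, 616.3, 539.4 and 540.9 CPM in WT and at 418.1, 340.5, 481.5 and 454.0 in the loss libraries. These groups did not overlap, yet HSPH1 was not called (log2 fold change -0.44, SE 0.113, adjusted p = 0.0959). It was called by DESeq2 (adjusted p = 0.0163), without any filter on low counts (0.0388) and without clone 2 (-0.61, 0.0192). The genes of 13q shifted by -0.40 in clone 1 and 0.05 in clone 2, beside HSPH1 changes of -0.60 and -0.29, and the part of this shift in the result was not tested. The HSPA1A and HSPA1B sum changed by -0.19 (adjusted p = 0.807), with groups that overlapped for either gene. HSP90AB1 changed by -0.21 (adjusted p = 0.318) and BAG3 by -0.03 (0.908), neither called.

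In HCT116 8q-loss edgeR called 0 of the 10 members, against 0.14% of 15659 genes (22 called, 854 at an unadjusted p under 0.05). DESeq2 also called 0 members, among 116 genes. The groups did not overlap for 3 members, and the share of all genes without overlap is not given here. DNAJB1 (19p, chromosome 19, 14514770 to 14529770) had 249.4 and 262.7 CPM in WT and 395.4, 436.0, 488.4 and 496.0 CPM in the loss libraries. Its level was 1.70-fold that of WT, and the test over all genes did not call it (log2 fold change 0.77, SE 0.249, adjusted p = 0.598). HSPH1 had 19.40 and 27.67 CPM in WT, then 6.52 and 4.08 in clone 1 and 15.29 and 11.53 in clone 2. The change was -1.39 on the log2 scale (SE 0.460, adjusted p = 0.604), and without clone 2 it was called, with an adjusted p of 0.0092. BAG3 (10q, chromosome 10, 119651370 to 119677819) was at 208.0 and 171.3 CPM in WT and at 225.2 to 318.8 in the loss libraries (log2 fold change 0.42, SE 0.261, adjusted p = 1), with 0.61 without WT replicate 1 and 0.26 without WT replicate 2. DNAJB1 overlaps TECR on the opposite strand, which reached 16500 counts, so its reads are uncertain in the same way as those of HSF1.

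Some members differed between the 2 HCT116 clones. HSP90AB1 stood at 3187 and 3787 CPM in WT, 3724 and 3763 in clone 1, and 5774 and 5436 in clone 2. Clone 1 lay within the range of WT and clone 2 above it. HSPA1B stood at 156.5 and 163.1 CPM in WT, 234.6 and 140.3 in clone 1 and 324.0 and 365.5 in clone 2, and the HSPA1A and HSPA1B sum changed by 0.67 (adjusted p = 0.987). HSPB1 (7q, chromosome 7, 76302544 to 76304295) had 2508 and 1599 CPM in WT and 1188 to 2045 in the loss libraries, which overlap (log2 fold change -0.51, SE 0.291), with -0.10 without WT replicate 1 and -0.82 without WT replicate 2.

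DNAJB1 was the member whose 8q-loss change differed between the lines. The change in A2058 minus that in HCT116 was -0.96 (SE 0.213, adjusted p = 0.00816), with 1.99% of 21132 genes called in this contrast and 3190 at an unadjusted p under 0.05. DNAJB1 changed by -0.14 in A2058 (199.8, 238.3, 221.6 and 232.1 CPM in WT against 184.9 to 220.3) and by 0.77 in HCT116, neither called on its own. BAG3 differed by -0.51 (adjusted p = 0.0896), HSP90AB1 by -0.62 (0.122), HSPA1B by -0.83 (0.515) and HSPH1 by 0.89 (0.195), none of them called.

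In A2058 7p-loss, edgeR called 0 of 10 members where 0.908% of 15305 genes were called (139, with 1986 at an unadjusted p under 0.05), and DESeq2 called 0 members among 448 genes. The groups overlapped for all 10, and the melanocyte markers summed to 854.3 to 2710 CPM, with 1 of 5 (MLANA) called lower. The changes ran from -0.29 for HSPA1A (adjusted p = 0.68) to 0.10 for BAG3 (0.674), and the HSPA1A and HSPA1B sum changed by -0.23 (0.775). The median over the members was -0.03, beside 0.01 over all genes.

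In A2058 1q-loss 5 of the 10 members rose and none fell. The share called in either direction is that of all 15387 genes tested, 49.6%, and 25.3% of all genes were called higher. HSPA1A (6p, chromosome 6, 31815464 to 31817946) had 131.7, 242.0, 204.9 and 290.8 CPM in WT replicates 1 to 4, 317.7 and 457.6 in clone 1, and 278.1 and 511.1 in clone 2. The groups overlap in the single WT library at 290.8. HSPA1A rose 1.81-fold (log2 fold change 0.85, SE 0.244, adjusted p = 0.0142). HSPA1B (6p, chromosome 6, 31827735 to 31830255) had 58.43, 123.2, 94.50 and 126.7 CPM in WT, 132.2 and 231.8 in clone 1 and 113.5 and 262.1 in clone 2. It rose 1.84-fold (0.88, SE 0.296, adjusted p = 0.0302), and the sum of both genes gave 0.86 (adjusted p = 0.0182). With only WT replicates 3 and 4 the adjusted p was 0.082 for HSPA1A and 0.127 for HSPA1B, and leaving out WT replicate 1, WT replicate 3, or replicate 2 of either clone took that of HSPA1B to 0.0693 to 0.0808.

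HSF1 also rose in A2058 1q-loss, from 139.3 to 162.3 CPM in WT to 198.7 and 202.5 (clone 1) and 175.3 and 179.5 (clone 2). Both clones lay above every WT library (log2 fold change 0.31, SE 0.0734, adjusted p = 0.00516), with an adjusted p of 0.0621 without clone 1. HSPB1 rose from 186.5, 196.4, 204.9 and 182.4 CPM to 256.8, 252.8, 226.3 and 223.5 (log2 fold change 0.32, SE 0.0702, adjusted p = 0.00323), again with no overlap. BAG3 averaged 148.6 ± 10.1 CPM in WT (SD, n = 4) and 178.6 ± 18.7 CPM in 1q-loss (SD, n = 4), with overlapping groups. It rose by 0.27 on the log2 scale (SE 0.0839, adjusted p = 0.0213). Its adjusted p was 0.133 without clone 1, 0.061 without WT replicate 1, and 0.0532 and 0.0596 without replicate 2 of clone 2 and of clone 1. HSPA8 (0.02, SE 0.103), HSP90AA1 (-0.06, SE 0.0727), HSP90AB1 (0.11, SE 0.0563), HSPH1 (0.11, SE 0.107) and DNAJB1 (-0.07, SE 0.12) were not called. HSPH1 was called without clone 2 (0.28, adjusted p = 0.0302), a clone in which the genes of 13q shifted by -0.38.

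The melanocyte markers fell in these clones, 5 of 5, with a summed level of 1537 to 2502 CPM in WT and 40.99 to 124.3 in 1q-loss, where TYR was near 0 (0.40 CPM on average). The epithelial markers EPCAM, CDH1, KRT8 and KRT18 summed to 75.39 to 98.87 CPM in WT and 154.2 to 196.6 in 1q-loss, with 2 of 2 tested called higher. The ovarian markers PAX8, WT1, KRT7 and MUC16 summed to 7.27 to 8.36 CPM in WT and 17.15 to 21.03 in 1q-loss, with 3 of 3 tested called higher. The 7 immediate early genes, which respond to handling, summed to 74.24 to 115.2 CPM in WT and 119.3 to 179.6 in 1q-loss, with 3 called higher and 1 lower. The part of these markers in the chaperone changes was not tested.

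Of 45 other genes of the heat shock network, 41 were tested in A2058 1q-loss, and 18 rose and 6 fell, with a median of 0.05 beside 0.00 over all genes. These counts stand against the same 49.6% called and 25.3% called higher over all genes. Among the HSP90 co-chaperones 7 of 8 rose, including FKBP5 (1.00), PPID (0.52) and AHSA1 (0.29), an activator of the HSP90 ATPase. Of the J-domain proteins 5 of 8 rose and 1 fell. The other groups were mixed. Of 7 HSP70 co-chaperones 1 rose and 1 fell, and of 6 relatives of the 70 kDa family 1 rose and 1 fell. Of 4 HSF family members and regulators 1 rose and 2 fell, and of 7 other heat-inducible genes 2 rose and 1 fell. DNAJB6, which holds aggregation-prone proteins, went from 289.8 ± 24.4 to 400.5 ± 15.2 CPM (log2 fold change 0.47, adjusted p = 0.000301). HSPB8, the small heat shock partner of BAG3, had the largest increase (4.02, SE 0.761, adjusted p = 0.00134), from 0.19 to 0.56 CPM in WT to 12.02 and 10.26 in clone 1 and 2.03 and 1.34 in clone 2. DNAJA4 had the largest decrease (-2.22, adjusted p = 0.0011), from 1.90 to 0.41 CPM on average. HSPA6, an inducible HSP70 that lies on 1q, was at 1.45 ± 0.378 CPM in WT and 0.79 ± 0.298 in 1q-loss (adjusted p = 0.0558). In the 7p-loss and 8q-loss clones 0 of 41 and 0 of 40 tested network genes were called, against the same small backgrounds as above, and likewise 0 of 41 in HCT116 8q-loss.

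**Figure D3:**
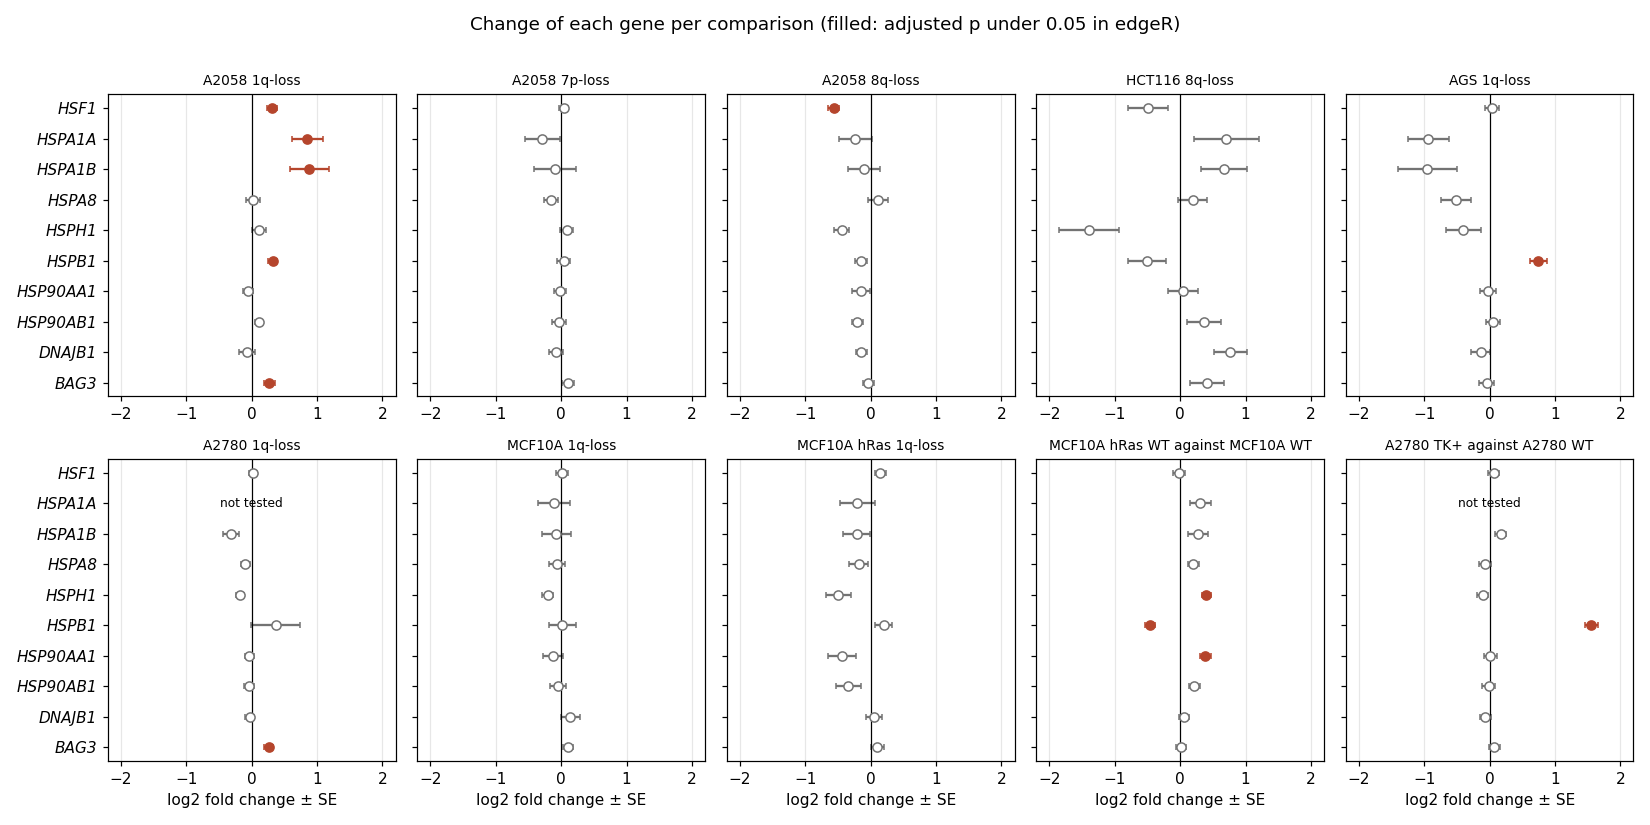
The log2 fold change of each gene (horizontal, bars are 1 SE) in each comparison with the control libraries of its line; filled points have an adjusted p under 0.05 in edgeR. The 1q-loss panel of A2058 has 5 filled points above 0, the 8q-loss panel only HSF1, at -0.57, and the AGS panel only HSPB1, at 0.74.

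Some members also differed between A2058 libraries of the same clone or of WT. The 18 libraries form 9 pairs: the 2 libraries of each of 7 clones, WT replicates 1 and 2, and WT replicates 3 and 4. The labels do not say what the numbers stand for. HSPA1A was higher in the higher-numbered library of 9 of 9 pairs, by a median log2 difference of 0.78 (0.50 to 0.88). HSPA1B (median 0.81, 0.42 to 1.21), HSPA8 (0.33, 0.07 to 0.52) and DNAJB1 (0.28, 0.06 to 0.57) were also higher in 9 of 9. HSPH1 and BAG3 were higher in 7 of 9, HSF1, HSP90AA1 and HSP90AB1 in 4 of 9 and HSPB1 in 3 of 9. Over 13643 expressed genes 4.34% were higher in all 9 pairs and 3.24% lower in all 9, and the medians of HSPA1A and HSPA1B lay above those of 99.3% and 99.4% of genes. The median of 0.78 for HSPA1A is close to its 1q-loss change of 0.85. Within each position of the pair, every 1q-loss library was above every WT library for HSPA1A: 317.7 and 278.1 against 131.7 and 204.9 CPM in the lower-numbered libraries, and 457.6 and 511.1 against 242.0 and 290.8 in the higher-numbered ones.

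**Figure D4:**
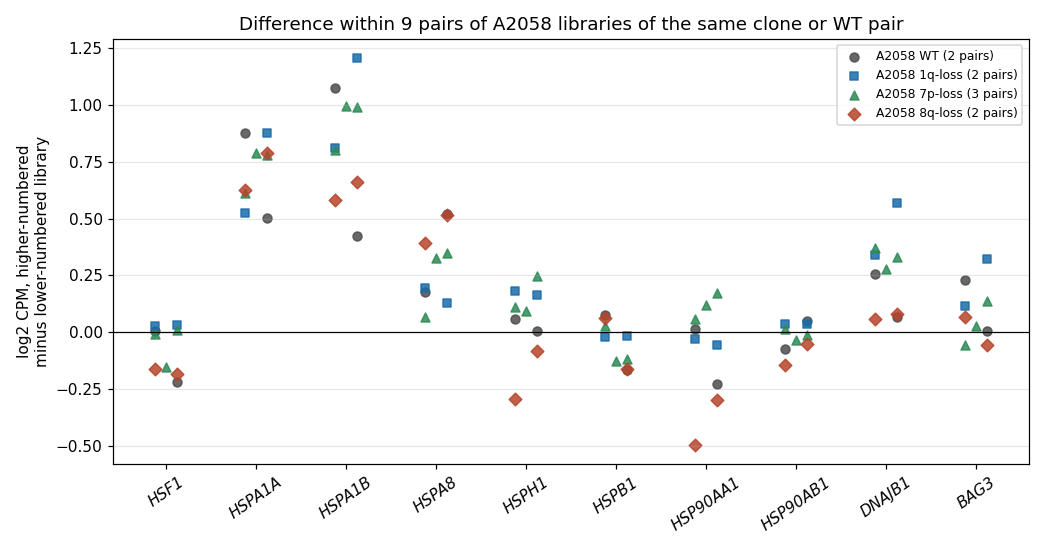
Log2 CPM of the higher-numbered minus the lower-numbered library (vertical) for each gene (horizontal) in 9 pairs of A2058 libraries, by group. All 9 points lie above 0 for HSPA1A, HSPA1B, HSPA8 and DNAJB1, whose promoters are printed above, with medians of 0.78, 0.81, 0.33 and 0.28.

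The pairs of the other lines gave other counts. In the 10 MCF10A pairs HSPA1A was higher in the second library of 7, HSPA1B of 8, and HSPB1 lower in 9. In the 3 HCT116 pairs DNAJB1 was higher in the second library of 3 and HSF1 lower in 3, by a median of -0.52, where 11.4% of 13091 genes were higher and 11.6% lower in all 3. In the 5 A2780 pairs HSPA1B was higher in 4 and HSP90AB1 lower in 5, where 6.83% of 13023 genes were lower in all 5. Whether the pattern differs between lines was not tested.

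In AGS 1q-loss 1 of the 10 members was called, against 7.55% of 14988 genes. HSPB1 had 205.1 CPM in WT, 190.5 and 172.8 in the TK+ clones, and 312.8, 268.2, 318.3, 353.9 and 368.1 in loss clones 1, 4, 6, 7 and 11. It rose 1.67-fold, in 5 of 5 clones (log2 fold change 0.74, SE 0.127, adjusted p = 0.0152). The adjusted p was 0.061, 0.085 and 0.0572 without TK+ clone 1, TK+ clone 2 or the WT library, while the change stayed at 0.69 to 0.82. The epithelial markers summed to 3349 to 4723 CPM in the controls and 5404 to 7215 in the loss clones, and KRT8 was called higher (0.79). The ovarian markers summed to 2.30 to 5.34 CPM in the controls and 5.69 to 52.67 in the loss clones, with 2 of 2 tested called higher. Of the breast epithelial markers 1 was called higher, at sums of 626.3 to 790.6 CPM and 583.3 to 782.8. Of the 7 immediate early genes 2 were called higher, at sums of 1201 to 1616 and 1062 to 1922 CPM. The part of these markers in the HSPB1 change was not tested.

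The 70 kDa chaperones of AGS went down in the values without being called. HSPA1B had 128.4, 125.6 and 91.32 CPM in the controls, 25.21 and 22.26 in clones 1 and 4, and 79.19, 89.90 and 88.30 in clones 6, 7 and 11. All 5 clones lay below all 3 controls, and clones 1 and 4 far below the other clones (log2 fold change -0.95, SE 0.45, adjusted p = 0.217). HSPA1A was at 10.66, 12.78 and 9.21 CPM in the controls and at 3.47, 3.29, 7.01, 6.84 and 8.51 in the clones in the same order (-0.94, SE 0.316, adjusted p = 0.101). DESeq2 called HSPA1A (adjusted p = 0.0436), and the sum of both genes gave -0.95 (edgeR, adjusted p = 0.205).

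HSPA8 (11q, chromosome 11, 123057489 to 123063230) and HSPH1 followed the same clones. HSPA8 had 515.9 and 604.7 CPM in clones 1 and 4, 896.3 to 991.3 in the other clones and 948.3 to 1279 in the controls (log2 fold change -0.52, SE 0.226, adjusted p = 0.185). HSPH1 had 138.6 and 156.2 CPM in clones 1 and 4, 263.7 to 300.0 in the others and 227.8 to 337.4 in the controls (-0.41, SE 0.267, adjusted p = 0.374). In these clones the genes of 11q, the arm of HSPA8, shifted by 0.42 and 0.57, against the direction of HSPA8, and those of 13q, the arm of HSPH1, by -0.40 and -0.37. The genes of 6p, the arm of HSPA1A and HSPA1B, shifted by -0.02 and -0.03. Clones 1 and 4 differed less from each other over all genes (chi-square per degree of freedom 17.3) than from clones 6, 7 and 11 (51.8 to 76.2), and clones 6 and 7 differed least (6.43). Without clones 1 and 4 the changes were -0.57 for HSPA1A (adjusted p = 0.0918), -0.45 for HSPA1B (0.0863), -0.25 for HSPA8 (0.295) and -0.09 for HSPH1 (0.742), and that of HSPB1 was 0.85 (0.00822).

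**Figure D5:**
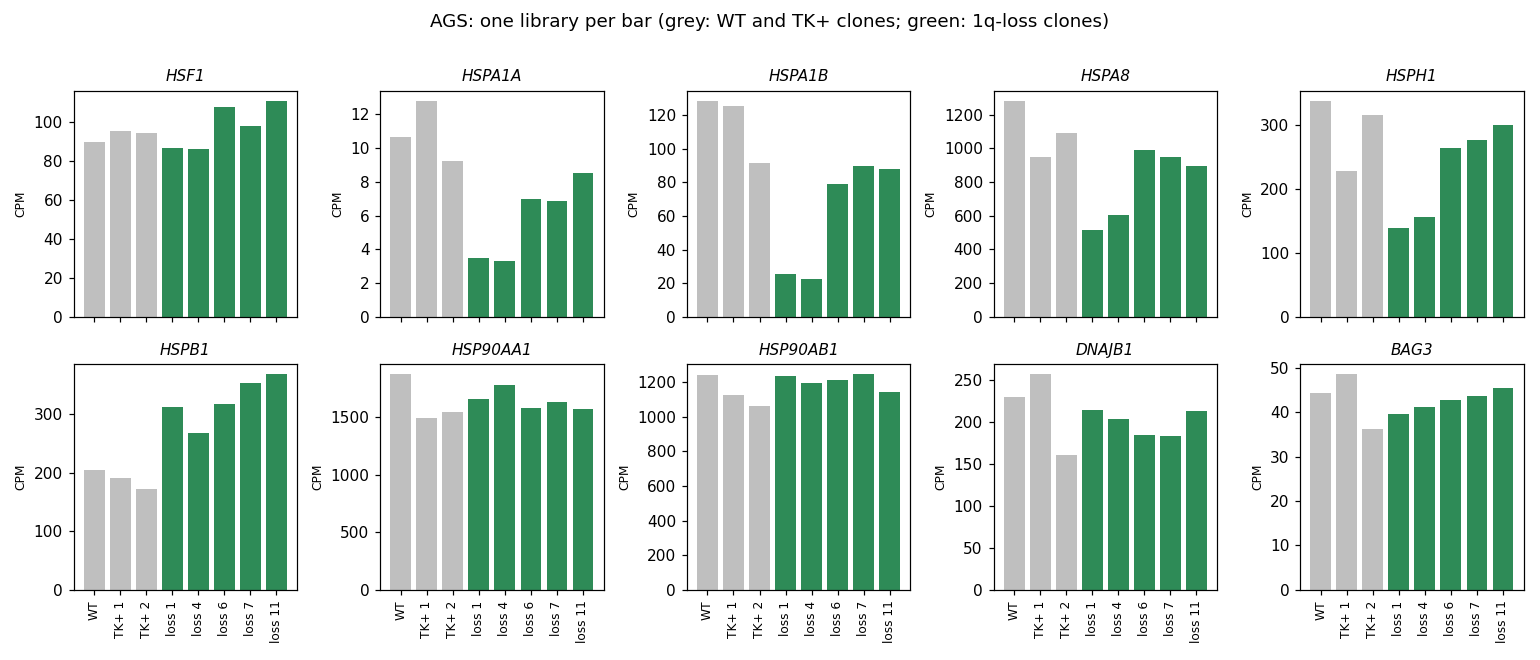
CPM of each gene in the 8 AGS libraries; each bar is 1 library, grey for WT and TK+ clones and green for 1q-loss clones. HSPB1 is higher in all 5 loss clones, and HSPA1A, HSPA1B, HSPA8 and HSPH1 are lowest in loss clones 1 and 4.

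HSP90AA1 (14q, chromosome 14, 102080738 to 102139699) and HSP90AB1 (6p, chromosome 6, 44246166 to 44253888) stayed within narrow ranges in AGS, at 1573 to 1774 and 1145 to 1245 CPM in the loss clones against 1494 to 1869 and 1065 to 1243 in the controls. Of the network genes, 2 rose and 1 fell of 41 tested: HSPA2, an HSP70 relative (1.02, adjusted p = 0.0283), SGTA and DEDD2 (-0.63, adjusted p = 0.0155). This share is close to the 7.55% called over all genes. HSPA6 was at 60.98 CPM in 1 TK+ clone and at 0.21 to 3.12 CPM in the other 7 libraries (log2 fold change -3.87, adjusted p = 0.0819).

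In A2780 1q-loss 9 members were tested, all but HSPA1A, and 1 was called, against 11.8% of 15044 genes. BAG3 was at 52.83 and 54.26 CPM in WT, 56.15 and 55.93 in TK+, and 72.81, 64.72, 62.57, 56.41, 68.45 and 68.70 in the loss libraries of clones 2, 5 and 6. Every loss library lay above every control, the closest by less than 1 CPM, and BAG3 rose 1.20-fold (log2 fold change 0.26, SE 0.0668, adjusted p = 0.0306). Its adjusted p was above 0.05 (0.0529 to 0.108) without any 1 of the 4 controls, replicate 1 of clone 2, or either library of clone 6, and it was 0.0936 against WT alone and 0.253 against TK+ alone. HSPA1B had 39.92 to 46.58 CPM in the controls and 26.67 to 39.80 in the loss libraries, lower in 3 of 3 clones with no overlap, and was not called (-0.32, SE 0.121, adjusted p = 0.118; the sum with HSPA1A gave -0.31 and the same p). The immediate early genes summed to 49.10 to 54.46 CPM in the controls and 85.27 to 126.8 in the loss libraries, with 4 of 7 called higher, and their part in the BAG3 change was not tested. Of 38 network genes tested, CDC37, the kinase-specific HSP90 partner, rose (0.26) and FKBP5 fell (-0.20).

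HSPB1 in A2780 depended on which control was used. It had 30.96 and 36.72 CPM in WT, 102.0 and 96.14 in TK+, and 132.1 and 108.4 (clone 2), 72.71 and 46.78 (clone 5) and 78.63 and 75.96 (clone 6) after 1q loss. All loss libraries were above WT, while TK+ lay between clone 2 and the other clones. Against both controls together the log2 fold change was 0.36 (SE 0.372, adjusted p = 0.586), against WT alone 1.34 (0.0436), and against TK+ alone -0.21 (0.781). In the comparison of TK+ with WT, both of which keep the gain, HSPB1 rose 2.94-fold (log2 fold change 1.55, SE 0.0976, adjusted p = 3.76e-07). It was the 1 member of 9 tested that was called there, against 11.2% of 14888 genes. The labels name no clone for the TK+ libraries, so the integrant and the picking of cells cannot be told apart. The epithelial markers summed to 171.1 to 180.3 CPM in WT, 5.60 to 8.39 in TK+ and 7.23 to 84.73 after 1q loss. Their part in the HSPB1 values was not tested. Of 38 network genes tested, HSPA4L, an HSP110 relative, rose (0.41) and CHORDC1 fell (-0.39) in TK+.

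In MCF10A 1q-loss edgeR called 0 of the 10 members, against 2.04% of 15666 genes (319, with 1848 at an unadjusted p under 0.05), and DESeq2 called 0 members among 546 genes. HSPH1 had 467.5 and 438.4 CPM in WT and 345.7 to 434.8 (median 390.1) in the 8 loss libraries. These do not overlap, in 4 of 4 clones, but the change was not called (log2 fold change -0.21, SE 0.0868, adjusted p = 0.355). The genes of 13q shifted by -0.10 to -0.18 in these clones. The other members ranged from -0.13 (HSP90AA1) to 0.14 (DNAJB1), and the HSPA1A and HSPA1B sum changed by -0.09 (adjusted p = 0.913). Neither gene had a fixed direction: HSPA1A ran from -0.40 to 0.25 and HSPA1B from -0.36 to 0.27 over the alternatives, with both ends reached by leaving out 1 WT library. HSP90AA1 was lowest in clone 4, at 2051 and 2276 CPM against 2652 to 3377 in clones 1 to 3 and 3107 and 2994 in WT. None of the 41 network genes tested was called.

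In cells that kept the gain, members differed between the line with hRas and the line without it. Between MCF10A hRas WT and MCF10A WT, 3 of the 10 members were called, against 1.62% of 14646 genes. HSP90AA1 rose from 3107 and 2994 to 3843 and 4103 CPM (1.31-fold, log2 fold change 0.39, SE 0.085, adjusted p = 0.0424). HSPH1 rose from 467.5 and 438.4 to 591.2 and 601.3 CPM (1.32-fold, 0.40, SE 0.075, adjusted p = 0.018). HSPB1 fell from 460.8 and 426.9 to 333.9 and 311.1 CPM (-0.46, SE 0.0763, adjusted p = 0.0091). HSPA8 (0.20, adjusted p = 0.316) and HSP90AB1 (0.22, 0.26) were not called, and the HSPA1A and HSPA1B sum changed by 0.29 (0.402). Groups of HSPA8 and HSP90AB1 did not overlap, which with 2 libraries a group is common without a difference. HSPA1A had 0.31 (0.395), with 0.01 without MCF10A WT replicate 1, 0.66 without WT replicate 2, and a call with no filter on low counts (0.0468). HSPA1B had 0.27 (0.47), with -0.02 and 0.61 without the same libraries. DESeq2 called 4 members, these 3 and HSP90AB1. The network genes that rose, 4 of 40 tested, were DNAJA1 (0.46), CHORDC1 (0.43), FKBP4 (0.41) and STIP1 (0.39), of which the last joins HSP70 to HSP90. With 2 libraries a group, leaving out any 1 of the 4 ended all 3 member calls (adjusted p = 0.067 to 0.341), and hRas cannot be told apart from how that line was made. The breast epithelial markers KRT5, KRT14, TP63 and EPCAM summed to 4090 to 4961 CPM in WT and 3816 to 3893 in hRas WT, and 1 of the 4 epithelial markers was called lower. Their part in these changes was not tested.

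The hRas 1q-loss clones split in the HSP90 genes. HSP90AA1 had 3843 and 4103 CPM in hRas WT, 3678 and 3626 in clone 1, 3461 and 3237 in clone 3, but 2320 and 2406 in clone 2 and 2336 and 2143 in clone 4. HSP90AB1 had 3353 and 3465 CPM in hRas WT, 2889 to 3382 in clones 1 and 3, and 2102 to 2215 in clones 2 and 4. HSPH1 followed with 591.2 and 601.3 CPM in hRas WT, 430.2 to 554.0 in clones 1 and 3 and 302.7 to 395.6 in clones 2 and 4. All 8 loss libraries were below hRas WT for HSP90AA1 and HSPH1, and clones 2 and 4 were below clones 1 and 3 for all 3 genes. None was called: HSPH1 changed by -0.49 (SE 0.192, adjusted p = 0.307), HSP90AA1 by -0.44 (SE 0.213, 0.375) and HSP90AB1 by -0.34 (SE 0.192, 0.419), and the HSPA1A and HSPA1B sum by -0.21 (0.678). Here edgeR called 0 of 10 members against 0.214% of 15851 genes (34, with 2262 at an unadjusted p under 0.05), DESeq2 called 0 members among 361 genes, and 0 of 40 network genes tested were called by edgeR. The arms 14q and 6p, which hold the HSP90 genes, shifted by -0.02 to 0.06 in the 4 clones. The breast epithelial markers summed to 3816 to 3893 CPM in hRas WT and 613.3 to 4511 in the clones, and the immediate early genes to 510.0 to 511.9 and 412.0 to 1075. Their part in the split was not tested.

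The difference between the 1q-loss changes with and without hRas was tested directly. Called genes made up 0% of 21132 (547 at an unadjusted p under 0.05), so 0 members were called by edgeR, and every member had an adjusted p of 1. DESeq2 was not run on this contrast. The change without hRas minus that with hRas was 0.33 (SE 0.230) for HSP90AA1, 0.31 (SE 0.214) for HSP90AB1 and 0.31 (SE 0.351) for HSPH1. HSPA6 was at 2.23 ± 1.37 CPM in MCF10A WT and 1.04 ± 0.349 in 1q-loss (SD, n = 2 and 8; adjusted p = 0.292), and at 1.88 ± 0.907 and 1.15 ± 0.526 with hRas (n = 2 and 8; 0.494).

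Over the 4 1q-loss sets with the same gene models (A2058, AGS, MCF10A and MCF10A hRas), a joint test asked whether the change differed. Of 21132 genes 14% were called. HSPA1A was the 1 member called (adjusted p = 0.0405), with changes of 0.85 in A2058, -0.94 in AGS, -0.11 in MCF10A and -0.21 in MCF10A hRas. HSPA1B missed the threshold (0.0508), with 0.88, -0.95, -0.08 and -0.22, and HSPB1 had 0.125, with 0.32, 0.74, 0.02 and 0.20. With only the libraries of these groups in the fit, the adjusted p was 0.0118, 0.0329 and 0.046. In direction, over the 5 1q-loss comparisons, HSPB1 and HSF1 were above 0 in all 5, with calls of HSPB1 in A2058 and AGS and of HSF1 in A2058. In A2780 the direction of HSPB1 turned against TK+ alone, and 3 of the HSF1 changes were at most 0.03. Under other alternatives HSPB1 reached -0.13 in MCF10A, and HSF1 reached -0.01 in AGS, -0.01 in A2780 and -0.08 in MCF10A. BAG3 was above 0 in all but AGS (-0.05). The share of all genes with the same direction in all 5 is not given here. HSP90AA1 was below 0 in all 5, from -0.03 (AGS) to -0.44 (MCF10A hRas), and HSPH1, HSPA1B and HSPA8 in 4 of the 5, none of them called lower in these fits. HSP90AA1 turned to 0.09 in AGS without the WT library and to 0.03 in A2058 with only WT replicates 3 and 4.

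Across the 52 libraries of the 4 lines with the same gene models, each centred on its line, HSPA1A and HSPA1B followed each other most closely (Pearson r = 0.933), over 8208 expressed protein-coding genes. These r values are descriptions. The libraries share clones and depth. Reads shared between near-identical genes could raise the first of them, which was not tested. Next for HSPA1A was ENGASE (0.762) and then PPP1R26 (0.713), and for HSPA1B ENGASE (0.769) and MSL1 (0.747). HSPA8 was closest to HSPA1B (0.733), JOSD1 (0.72) and IRF2 (0.679). HSP90AB1 was closest to DDX21 (0.87), TCP1 (0.867), a subunit of the CCT chaperonin, and TMEM33 (0.865). HSP90AA1 was closest to NAF1 (0.811), HSP90AB1 (0.785) and CCDC59 (0.772). For HSF1 the nearest genes, MAF1 (0.875), ZC3H3 (0.782) and C8orf82 (0.781), all lie on 8q with it. Values were centred on the line, not on the group, so the loss of 8q, which lowers its genes together, enters these r values.

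The remaining members had weaker likenesses. HSPH1 was nearest to CDKN2AIP (0.704), MAPKAPK5 (0.69) and MTFR1 (0.684), and HSPB1 to CTDP1 (0.704), RNF126 (0.684) and RUVBL2 (0.669). DNAJB1 was nearest to JMJD6 (0.6), TOM1L1 (0.57) and BAG3 (0.567), and BAG3 to EPHB4 (0.65), SBNO2 (0.621) and SHB (0.619). Against the other members, HSF1 had r values from -0.227 (HSPA8) to 0.525 (HSPB1), with 0.196 for HSPA1A and 0.163 for HSPA1B. Single lines differed: with HSP90AB1 the r of HSF1 was 0.742 over 18 A2058 libraries, -0.875 over 6 of HCT116 and -0.6 over 20 of MCF10A, and with HSPH1 it was 0.811 in A2058 and -0.382 in MCF10A. The loss groups of a line enter these values as well.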

How the data were processed

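Messenger RNA was selected with poly-T beads and copied with random hexamers, per the labels' protocols. The submitters' processing notes name HISAT2 2.0.5, featureCounts 1.5.0-p3 and hg38, while the A2780 tables carry GRCh37 coordinates. Whether counting used the strand or multimapping reads is not given in the sources used here. The authors deposited raw counts per gene, 1 table per library, and A2780 was therefore analysed apart. No column belonged to another series and no library was left out.

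Genes passing filterByExpr of edgeR 4.0.16 (minimum count 10, total 15) were scaled by TMM and tested by quasi-likelihood F-tests over the libraries of each comparison (R 4.3.3, limma 3.58.1). P-values are two-sided, adjusted by Benjamini-Hochberg over all genes tested and called under 0.05. SE is the log2 fold change over the square root of F. Differences between comparisons used all libraries of the 4 lines with the same gene models. Arm shifts are medians over tested genes, and per-clone changes use log2 CPM with a prior count of 2. Whether groups overlap is a description: with few libraries they can separate without a difference, and no share over all genes is given. Outside A2780 the lowest count of a member was 62 (HSPA1A, AGS), and in A2780 it was 565 apart from HSPA1A at 0 to 3.

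Text names all members, and of 45 network genes the called gene with the largest change in each direction (mean CPM at least 1), HSPA6 in 1q-loss, HSPA4L and DNAJB6 where called, and the 3 genes most like each member (mean CPM at least 5 in every line). Further network genes were named after their values were seen. The members and lists were chosen with earlier results of these data known. Alternatives were DESeq2 1.42.0, other scaling, filters, controls, summed clones, a replicate block, and libraries or clones left out. Leaving out AGS clones 1 and 4 together was chosen after seeing the data. Scripts were tested on simulated data. Tables and plots were made in Python 3.11.15 (matplotlib 3.10.9, pandas 2.3.3, numpy 2.4.6).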

Additional observations from a re-analysis of the deposited data

Results flagged for a closer look

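In 90 groups of 4 to 8 libraries, 1 gene each, the highest and lowest library were compared with the others, and chance alone marks about 1 in 20 such groups. HSP90AA1 in A2780 1q-loss stood at 2420 CPM in clone 5 replicate 2 and at 2087 to 2152 CPM in the other libraries. HSPB1 in MCF10A 1q-loss stood at 705.9 CPM in clone 4 replicate 1 and at 342.3 to 482.5 CPM in the others. Neither gene was called in its comparison.

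The 8q-loss change of DNAJB1 differed between A2058 and HCT116 (adjusted p = 0.00816 by edgeR), by -0.96 on the log2 scale. The 1q-loss change of HSPA1A differed among A2058, AGS, MCF10A and MCF10A hRas (adjusted p = 0.0405 by edgeR).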

How the results depend on the processing

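Of 1697 values of a member's change under the alternatives, 1641 kept their side of the threshold, 45 lost their call and 11 gained one. No called value changed sign, while 76 of 1493 values of members not called did. In A2058 1q-loss, 5 members were called, against 3 without clone 1, 3 with WT replicates 1 and 2 only and 2 with WT replicates 3 and 4 only, and 3 to 5 without single libraries. Without clone 2 HSPH1 was called in addition to these 5 (0.28, adjusted p = 0.0302 by edgeR). In A2058 8q-loss, 1 was called, against 2 with DESeq2, 2 with no filter, 2 without clone 2, and 0 with WT replicates 1 and 2 only or 3 and 4 only, where HSF1 was at -0.59 (adjusted p = 0.0659) and -0.55 (0.235). HCT116 8q-loss gave 1 without clone 2 against 0. AGS gave 2 with DESeq2 against 1, and 0 to 1 without single libraries. A2780 1q-loss gave 0 with no filter, with clones summed, without clone 2, without clone 6 and with TK+ only, and 0 to 1 without single libraries, against 1. The hRas WT comparison gave 0 without any single library, against 3. The joint test of the 4 1q-loss sets gave 3 with only the libraries of the contrast, against 1. The cause was not tested, though leaving out libraries or testing more genes also changes the power.

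With the replicate number as a replicate block, 0 members were called in A2058 8q-loss (HSF1 -0.59, adjusted p = 0.0581), 6 in A2058 1q-loss, where HSP90AA1 was called lower (-0.14, adjusted p = 0.0427), and 4 in hRas WT, where HSPA1A was added (0.34, adjusted p = 0.0116), and no other count changed. With the block HSPA1A in A2058 1q-loss was at 1.09 (SE 0.0909, adjusted p = 0.000372) and HSPA1B at 1.04 (SE 0.0919, adjusted p = 0.000458). Their SE without the block were 0.244 and 0.296. The numbers did not pair the libraries by the rule used, which asks for a correlation over 0.1 in every pair: correlations of same-numbered libraries ran from -0.178 to 0.487, and WT numbers 3 and 4 have no partner. AGS libraries carry 1 number per clone, so no block was fitted there.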
